A study of Homo sapiens with 4 samples.

Results

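The genes of the ubiquitin-specific proteases (USP) and of their OTU-family relatives (OTUD and OTUB) were followed in MDA-MB-231 Fluc cells treated with cordycepin. They were taken by gene symbol (USP with a number, OTUD with a number, OTUB1 and OTUB2, with a Y-linked copy left out). This choice was made with earlier results of these data known. Of the 13957 genes of the deposited table, 50 matched, 42 USP and 8 OTU genes. Another 11 genes with such names (USP2, USP6, USP18, USP26, USP29, USP41, USP44, USP50, USP51, OTUD6A and OTUD7A) were not among the genes of the table and are not analysed here. MDA-MB-231 is a human triple-negative breast cancer line, and the Fluc derivative carries an inserted luciferase gene for imaging. RNA came from 2 samples given 50 μM cordycepin and 2 given DMSO, the vehicle, each for 2 h, and was sequenced as stranded libraries depleted of ribosomal RNA. Both groups are the same line, so the values describe 1 line at 1 dose and 1 time. Nothing in the labels says that the duplicates were separate cultures, and the p-values then rest only on spread between these samples, which may be technical.

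Ubiquitin is a small protein that is joined to other proteins, often as chains, and marks them for the proteasome, for sorting at membranes or for assembly of signalling and repair complexes. Deubiquitinases remove it again, and the USP proteins are the largest family of these enzymes in human cells. The OTU (ovarian tumour domain) proteins share the cysteine protease chemistry but have a different fold and often prefer chains of a particular linkage. Cordycepin is 3'-deoxyadenosine, an adenosine analogue that lacks the hydroxyl group from which an RNA chain is extended.

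The table gives 1 log2 fold change of cordycepin against DMSO per gene, a mean level over the 4 libraries as log2 CPM (read counts scaled to library size, on a log2 scale) and the p-value of an F test, with no value for a single library. The depth of the libraries is unknown, and no SD or per-sample value can be given. The error given with each fold change below is an approximate standard error (SE), the fold change divided by the square root of F. It ran from 0.020 to 0.21 on the log2 scale over the 50 genes, with a median of 0.040. Of 6 genes listed as high in MDA-MB-231, VIM, CD44, AXL, CAV1 and MSN had mean levels of 9.68 to 11.01 log2 CPM. The other listed gene, SPARC, was not among the genes of the table. Neither were ESR1, PGR, PTPRC, CD68, PECAM1 and VWF, which mark luminal, immune or endothelial cells. The luminal markers GATA3, CDH1 and EPCAM had levels of 4.49, 3.68 and 3.68 log2 CPM with approximate SEs of 0.22, 0.38 and 0.29, which are larger than those of all 50 protease genes, and ERBB2 was at 6.49 log2 CPM. GATA3 had a log2 fold change of -2.91, while CDH1, EPCAM and ERBB2 had 0.23, 0.34 and 0.13, and the part of these markers in the results was not tested. The fibroblast markers COL1A1, COL1A2 and PDGFRB were at 3.36, 2.09 and 3.28 log2 CPM. In such bulk samples, fewer cells and less RNA per cell cannot be told apart. The fold changes of all genes had a median of 0.04. Among the better expressed genes, those over the median level, it was 0.13, and fold changes below are as the table scales them.

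Most of the 50 genes fell or rose by little, and a small number fell steeply. With the threshold set at -1 on the log2 scale and at p of 0.05, 9 of the 50 (18.0%) fell past it, called steep falls below, while 12.4% of all genes in the table did. Past the same size of change upwards there was none of the 50, where 0.0502% of all genes rose. By the adjusted p alone (Benjamini-Hochberg over all genes, at most 0.05), 32 (64.0%) fell against 37.2% of all genes, and 12 (24.0%) rose against 40.2%. The other 6 passed neither. Taking 0.13 off every fold change can only lower it, so the 32 that fell could not change sign. Of the 12 that rose, 9 stayed above 0, at 0.0482 to 0.26. The median log2 fold change of the family was -0.30, with -0.26 for the USP genes and -0.75 for the OTU genes, beside 0.04 for all genes.

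**Figure D1:**
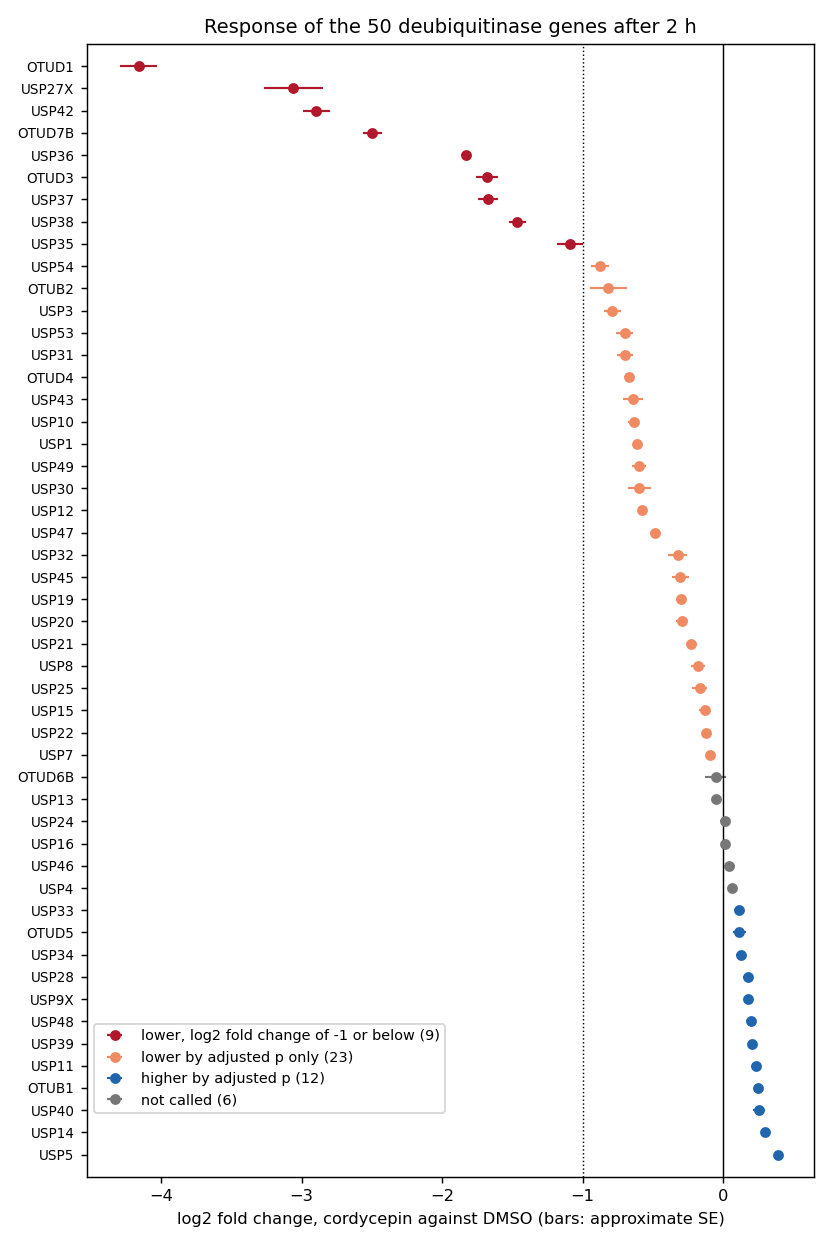
Log2 fold change of each of the 50 genes, cordycepin against DMSO, with bars for the approximate SE. OTUD1 at -4.16, USP27X at -3.06, USP42 at -2.90 and OTUD7B at -2.50 stand apart from the rest, 23 further genes that fell lie between the dotted line at -1 and 0, and the 12 that rose end at USP5 with 0.39.

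OTUD1 and USP27X fell furthest. OTUD1, an OTU protease encoded by a gene without introns (chr10:23439458-23442390, GRCh38), had a log2 fold change of -4.16 (SE 0.13, adjusted p = 8.3e-32 in the deposited F test), which is 5.59% of the DMSO level and rank 33 among all genes, counted from the lowest. USP27X on the X chromosome, which removes ubiquitin from histone H2B together with ATXN7L3 and ENY2, had -3.06 (SE 0.21, adjusted p = 1.55e-18), or 0.12 of the DMSO level. It was also the gene with the lowest mean level of the family, 1.06 log2 CPM, and had the largest SE. Both are the only genes of the family whose canonical transcript has 1 exon.

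USP36 (chromosome 17), a nucleolar protease that also stabilises MYC, was the most highly expressed of the 9 steep falls, at 5.85 log2 CPM, and its log2 fold change of -1.83 (SE 0.036, adjusted p = 1.03e-40) had the smallest SE of them. It was reduced to 28.1% of the DMSO level. Its promoter is shown with those of OTUD1 and USP27X, the largest falls, and of USP5, the largest rise, so that their base composition and the 2 motifs in capitals can be compared. Each runs from 250 bases before to 50 after the RefSeq start (GRCh38.p14), 5' to 3' along the gene. They are chr10:23438825-23439124 on the plus strand for OTUD1, chrX:49879234-49879533 on the plus strand for USP27X, chr17:78840765-78841064 on the minus strand for USP36 and chr12:6851900-6852199 on the plus strand for USP5. Capitals mark the E-box (CACGTG) and the half-site of the cyclic AMP response element (TGACG, or its reverse complement). In OTUD1 an E-box and a half-site overlap as CACGTGACG.
OTUD1: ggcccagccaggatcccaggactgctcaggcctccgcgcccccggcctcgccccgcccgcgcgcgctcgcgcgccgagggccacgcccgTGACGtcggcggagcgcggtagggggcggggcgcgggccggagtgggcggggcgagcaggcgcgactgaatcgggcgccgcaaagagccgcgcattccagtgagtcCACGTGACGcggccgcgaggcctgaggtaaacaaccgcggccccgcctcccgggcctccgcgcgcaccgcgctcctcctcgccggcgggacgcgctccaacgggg
USP27X: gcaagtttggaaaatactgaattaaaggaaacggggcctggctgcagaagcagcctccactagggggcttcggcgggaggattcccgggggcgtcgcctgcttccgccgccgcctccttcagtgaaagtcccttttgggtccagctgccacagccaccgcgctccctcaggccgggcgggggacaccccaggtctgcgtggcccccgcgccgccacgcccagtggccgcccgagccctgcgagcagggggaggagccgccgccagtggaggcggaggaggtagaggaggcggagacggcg
USP36: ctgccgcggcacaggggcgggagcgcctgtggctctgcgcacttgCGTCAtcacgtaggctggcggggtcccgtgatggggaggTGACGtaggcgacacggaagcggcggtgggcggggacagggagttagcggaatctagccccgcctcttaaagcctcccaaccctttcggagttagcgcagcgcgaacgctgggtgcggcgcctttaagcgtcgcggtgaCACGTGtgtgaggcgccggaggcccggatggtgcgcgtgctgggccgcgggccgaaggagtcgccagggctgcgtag
USP5: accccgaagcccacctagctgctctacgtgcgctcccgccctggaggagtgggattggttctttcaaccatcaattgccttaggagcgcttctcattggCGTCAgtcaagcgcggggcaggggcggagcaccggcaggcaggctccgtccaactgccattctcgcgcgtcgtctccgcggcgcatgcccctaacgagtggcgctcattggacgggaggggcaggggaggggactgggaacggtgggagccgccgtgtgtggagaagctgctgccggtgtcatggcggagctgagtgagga
The OTUD1 window is 79.3% G and C, against 70.0% in USP27X, 69.7% in USP36 and 65.7% in USP5. OTUD1 and USP36 each hold 1 E-box and 2 half-sites, USP5 holds 1 half-site and USP27X neither. The RefSeq start of OTUD1 lies upstream of the start that the table gives for the gene. That of USP36 lies downstream of the start in the table (chr17:78787381-78841441, minus strand). By those coordinates the whole USP36 window lies inside the gene.

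USP42, OTUD7B, OTUD3, USP37, USP38 and USP35 made up the rest of the steep falls. USP42 (chromosome 7), which acts on p53 and on histone H2B, had a log2 fold change of -2.90 (SE 0.095, adjusted p = 2.13e-31). OTUD7B, also called Cezanne and known as a brake on NF-κB signalling, and OTUD3 both lie on chromosome 1. OTUD7B had a log2 fold change of -2.50 (SE 0.070, adjusted p = 1.41e-32), leaving 17.7% of the DMSO level, and OTUD3 had -1.68 (SE 0.079, adjusted p = 6.03e-25), leaving 31.2%. USP37 (chromosome 2), which stabilises cyclin A, was lower by nearly the same amount as OTUD3, at -1.67 (SE 0.073, adjusted p = 2.43e-26). USP38 on chromosome 4 and its relative USP35 on chromosome 11 had -1.47 (SE 0.062, adjusted p = 9.08e-27) and -1.09 (SE 0.090, adjusted p = 1.53e-15). USP35, at 47.0% of the DMSO level, lay closest to the threshold of these 9, within about 1 SE of it, and USP54 was the nearest gene outside it, with -0.88 (SE 0.061), or 54.5%.

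Grouped by role, the steep falls were 2 of 7 histone genes and 2 of 5 of mitosis and nucleolus. They were also 3 of 8 OTU genes and 2 of 7 less well characterised genes. There was none among the 9 genes of p53 and DNA repair, the 3 of free chains, the 9 of receptor traffic or the 2 of membranes. The share over all genes was 12.4%, and these small groups were not tested against it. By adjusted p, the counts of each group stand beside 37.2% lower and 40.2% higher among all genes, and 64.0% and 24.0% in the family. Of the 7 genes whose products act on histones and chromatin, 6 fell by adjusted p and none rose, and their median was -0.60 on the log2 scale. Below USP27X and USP42 came USP3, which acts on ubiquitinated H2A, at -0.79, and USP49, which acts on H2B, at -0.60. USP21 fell by 0.23 and USP22, the protease of the SAGA coactivator, by 0.12 on the log2 scale. USP16, an H2A protease needed for mitosis, did not pass, at 0.02 (SE 0.030, adjusted p = 0.626). Among the partner proteins of these enzymes, ATXN7, the SAGA subunit that tethers the module, fell to a log2 fold change of -1.67 and ATXN7L3 to -0.51, while ENY2 rose to 0.32.

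Of the 9 genes tied to p53, DNA repair and replication, 5 fell, 3 rose and 1 did not pass, with a median of -0.09. USP10, which acts on p53 and binds G3BP1, had the lowest value, -0.64, and USP1, which removes ubiquitin from FANCD2 and PCNA, followed at -0.62. Per kilobase of gene length USP1 had the highest level of the family (5.46 log2 CPM per kilobase). WDR48, the activating partner of USP1, did not pass, at 0.02 (adjusted p = 0.875). USP47 fell by 0.49 and USP45 by 0.30, and USP7, the protease of MDM2 and p53, fell by 0.09 (SE 0.020) on the log2 scale. USP28, a protease of MYC, rose to 0.18, USP48 to 0.20 and USP11, which acts on BRCA2, to 0.23 (SE 0.030, adjusted p = 1.09e-09). USP24 was at 0.01 (SE 0.033, adjusted p = 0.793).

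The group of mitosis, centrosome, splicing and nucleolus held 3 genes that fell and 2 that rose. Besides USP36 and USP37, USP20, which binds the VHL ubiquitin ligase, fell to -0.29. The related USP33 rose to 0.11 and USP39, a catalytically inactive member of the spliceosome, to 0.21. USP33 is at -0.02 when the shift of 0.13 is taken off.

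The 3 genes of free chains and the proteasome gave the highest median, 0.29, and no gene fell. USP5, which takes apart free ubiquitin chains, rose most of the 50 genes, to 0.39 (SE 0.028, adjusted p = 7.73e-18) or 131% of the DMSO level. USP14, which trims chains on the proteasome, followed at 0.29 (SE 0.022, adjusted p = 4.04e-17). USP13, the close relative of USP5, did not pass, at -0.05 (SE 0.028, adjusted p = 0.0808).

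In the 9 genes of receptor traffic and growth signalling, 5 fell, 2 rose and 2 did not pass, over a narrow range from -0.57 to 0.18. USP12 gave the lowest value and USP32 had -0.32. USP8, which takes ubiquitin off the EGF receptor at endosomes, fell by 0.18 on the log2 scale, and its partner STAM by 0.61. USP15, which acts on TGF-β receptor signalling, fell by 0.13 and USP25 by 0.17 on the same scale. USP9X, a large X-linked protease of MCL1, had the highest mean level of the family, 8.48 log2 CPM, and rose to 0.18 (SE 0.026, adjusted p = 2.43e-08). USP34, an enzyme of the Wnt pathway acting on axin, rose to 0.12, a value that turns to -0.0042 when the shift is taken off. USP46 (0.04, SE 0.039, adjusted p = 0.319) and USP4 (0.07, SE 0.032, adjusted p = 0.0564) did not pass. WDR20, a partner of USP12 and USP46, was among the steep falls of the partner list, at -1.36. Both membrane-anchored proteases fell: USP30, which sits in the outer mitochondrial membrane and opposes Parkin, to -0.60 (SE 0.083), and USP19 of the endoplasmic reticulum to -0.30 (SE 0.035).

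The 7 less well characterised USP genes held 6 that fell. Besides USP38 and USP35 these were USP54 (-0.88), USP53 (-0.70), USP31 (-0.70) and USP43 (-0.64), and USP40 rose to 0.25 (SE 0.041, adjusted p = 4.06e-07). The 8 OTU genes spanned the widest range, from OTUD1 to OTUB1. Besides the 3 steep falls, OTUB2 had -0.82 (SE 0.13) and OTUD4 -0.67 (SE 0.032). OTUB1, which also blocks the ubiquitin-conjugating enzyme UBE2N without cutting chains, rose to 0.25 (SE 0.025, adjusted p = 1.72e-12), and UBE2N itself rose to 0.31. OTUD5, which acts on TRAF3, rose to 0.12 (SE 0.048), a value at -0.01 after the shift. OTUD6B did not pass, at -0.05 (SE 0.073, adjusted p = 0.513).

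**Figure D2:**
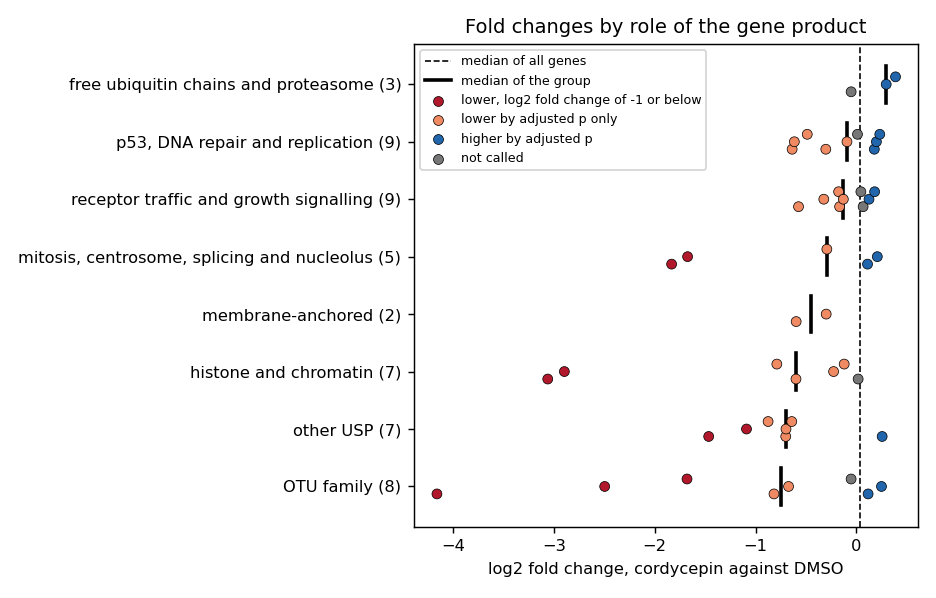
Log2 fold changes of the 50 genes, cordycepin against DMSO, by the role of the product, with the number of genes in brackets, thick bars for group medians and a dashed line for the median of all genes. The medians run from -0.75 in the OTU family to 0.29 in free ubiquitin chains and proteasome, and the 9 steep falls lie in 4 of the 8 groups.

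Fold changes were higher in genes of higher level. When all genes of the table were divided by mean level into 4 equal bands, both proteases of the lowest band and all 14 of the second fell by adjusted p, against 35.0% and 47.9% of all genes there. In the third band 10 of 15 fell and 2 rose, against 44.1% and 41.0% of all genes there, and in the highest 6 of 19 fell and 10 rose. Of all genes in that highest band, 21.9% fell and 68.2% rose. Steep falls numbered 2 of 2, 5 of 14, 2 of 15 and 0 of 19 from the lowest to the highest band, beside 16.2%, 19.8%, 10.8% and 2.89% of all genes. The 9 steep falls had levels of 1.06 to 5.85 log2 CPM and the 12 genes that rose had 5.84 to 8.48. Across the 50 genes, fold change and mean level had a Spearman rho of 0.74 and a Pearson r of 0.66 (n = 50), and across 11603 protein-coding genes rho was 0.34. With the level per kilobase of gene length in place of the level, rho over the 50 genes was 0.70. These points share the same 4 libraries, and a fall lowers the mean level itself, since that mean includes the cordycepin samples.

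**Figure D3:**
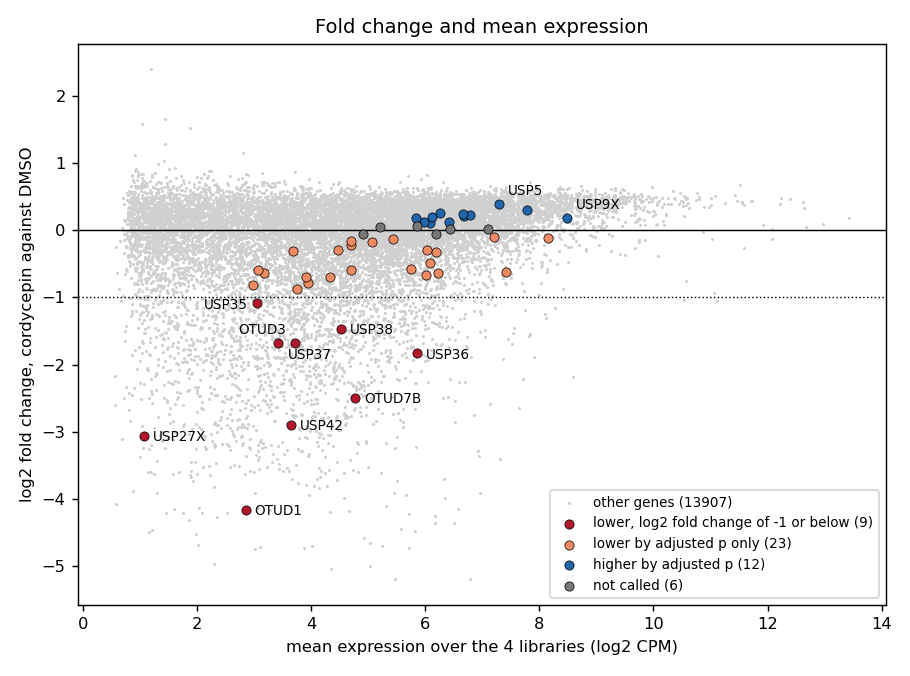
Log2 fold change (vertical axis) against mean expression over the 4 libraries in log2 CPM (horizontal axis), with all other genes of the table in grey. USP36, at 5.85 log2 CPM, is the most highly expressed gene of the family below the dotted line at -1, and the 12 blue points of genes that rose all lie at 5.84 log2 CPM or above.

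Closely related proteases were then set side by side. In 12 sets of related genes with at least 2 in the table, the gene with the higher fold change also had the higher mean level in 9. The exceptions were USP12 and USP46, USP38 and USP35, and USP31 and USP43; the last pair of these, the pair of USP38 and USP35 and that of USP42 and USP36 were added after their values were seen. The widest gap was between USP27X and USP22, which are alike in sequence and serve the same H2B module. USP27X stood at -3.06 and 1.06 log2 CPM, and USP22 at -0.12 and 8.15 log2 CPM. OTUB2 and OTUB1 followed, with fold changes of -0.82 and 0.25 at levels of 2.98 and 6.65 log2 CPM. USP13 and USP5 were at -0.05 and 0.39, USP20 and USP33 at -0.29 and 0.11, and USP25 and USP28 at -0.17 and 0.18. USP42 and USP36, both steep falls, were at -2.90 and -1.83 with levels of 3.64 and 5.85 log2 CPM. USP31 and USP43 lay closest, at -0.70 and -0.64, with approximate SEs of 0.058 and 0.069. The differences within sets were not tested. Reads from stretches that closely similar genes share, such as USP27X and USP22 or USP32 and its relative USP6, can be split by the counting. These values are uncertain to that extent, which was not measured.

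**Figure D4:**
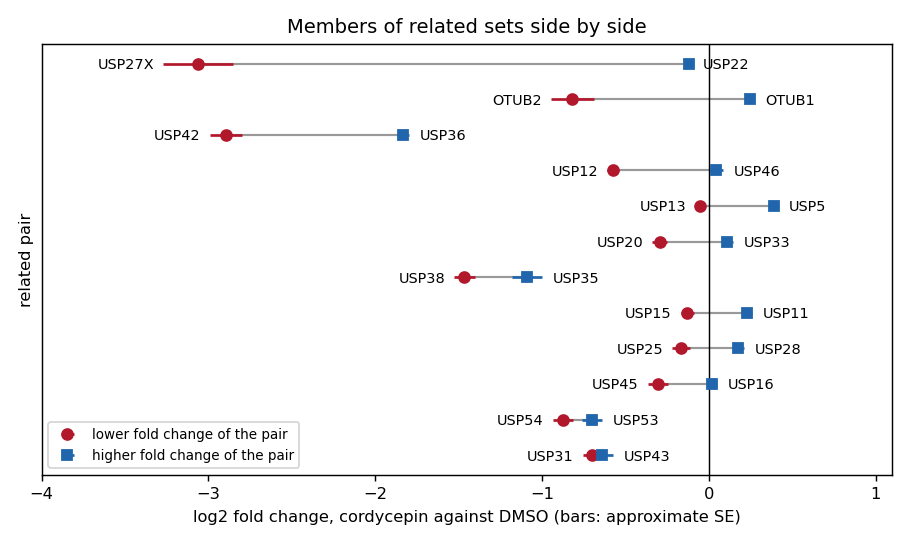
Log2 fold changes, cordycepin against DMSO, of the lowest and the highest gene in each of 12 related sets, with bars for the approximate SE (circles for the lower value, squares for the higher). The gap between USP27X and USP22 is 2.94 on the log2 scale and that between USP31 and USP43 is 0.057.

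The genes of the family differ in architecture. Canonical transcripts in GENCODE release 44 had from 1 exon in OTUD1 and USP27X to 80 in USP34. Of the 21 genes with over 20 exons, 2 (9.52%) fell steeply (USP36 and USP37), and of the other 29, 7 (24.1%) did. Among all genes, 12.4% fell steeply. No share over all genes split at 20 exons is given here, and the difference between these counts was not tested. Across the 50 genes, fold change and exon number had a Spearman rho of 0.36 and a Pearson r of 0.37 (n = 50), and without the 2 genes of 1 exon rho was 0.28 (n = 48). Over 11603 protein-coding genes it was 0.076. Over protein-coding genes of the whole table, 67 of 219 genes with 1 exon (30.6%) fell steeply and their median was -0.42 on the log2 scale, against 13.5% and 0.01 for the 11384 with more. The length of the 3' UTR had a rho of -0.25 with the fold change over the 50 genes and -0.19 over 11582 protein-coding genes. By the coordinates of the table, 11 of the 50 genes overlapped another gene and 0 of the 9 steep falls did. The share of overlapping genes over the whole table is not given here, so these counts are not read as a trait of the steep falls. The strand setting of the counting is not given in the sources used here.

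AU-rich elements are 3' UTR sequences known for binding proteins that control mRNA decay. The nonamer TTATTTATT was present in the canonical 3' UTR of 6 of the 50 genes, beside 9.84% of 11583 genes of the table and 14.1% of the genes that fell steeply. None of the 9 steep falls of the family held it. The 6 were USP31, USP30, USP12, USP32, USP8 and USP15, whose fold changes ran from -0.70 to -0.13. The shorter core TATTTAT, which the nonamer contains, was found in 24 of the 50 (48.0%) and in 4 of the 9, beside 36.7% of all genes and 48.6% of steep falls. Only the strand of the transcript was searched. OTUD1, the largest fall, held 2 copies of the core and no nonamer, and its sites are given beside nonamer sites of USP31 and USP12, with the motif in capitals and 10 bases on either side. They lie at chr10:23441110-23441136 and chr10:23442031-23442057 on the plus strand, and at chr16:23067990-23068018 and chr13:27068596-27068624 on the minus strand (GRCh38).
OTUD1 first site: attttactgcTATTTATaatttgctgt
OTUD1 second site: cttttagtcaTATTTATtaagtaatgc
USP31: gtaaagatgtTTATTTATTtagaacccct
USP12: aattttttccTTATTTATTttacttaaaa
USP31, with 2 nonamers, was at 61.6% of the DMSO level, and OTUD1, with none, at 5.59%.

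RefSeq promoter windows were matched for 42 of the 50 genes and for 7 of the 9 steep falls (USP37 and USP42 were not matched). On either strand, the E-box CACGTG was found in 5 of the 42 (11.9%) and in 7.26% of all 35116 windows of the same length, and among the steep falls in OTUD1 and USP36. TGACG was found in 14 of 42 (33.3%) beside 24.6% of all windows, with OTUD1, USP36 and USP38 among the steep falls. The GC box GGGCGG was found in 35 of 42 (83.3%) and in 7 of the 7, beside 45.0% of all windows. CCAAT was in 11 of the 42 and in 0 of the 7, beside 34.6% of all windows. The ETS motif CCGGAAGT was in 4, TATAAA in 2 and the AP-1 motif TGANTCA in 0 of the 42, against 4.14%, 11.5% and 7.71% of all windows. The 35116 windows outnumber the 13957 genes of the table, so shares of all windows are not shares of the genes in the table. No promoter share over the genes of the table alone is given here. A match is a description of letters in the window and not a binding site.

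Other deubiquitinases and related proteases, whose symbols the rule did not match, gave a median of -0.02 over the 24 genes of the table among 26 listed. By adjusted p, 11 of them fell (45.8%, beside 37.2% of all genes) and 10 rose (41.7%, beside 40.2%). Steep falls were 5 of the 24 (20.8%, beside 12.4% of all genes), named here after their values were seen. YOD1 and VCPIP1, which both work with the ATPase VCP, were at -3.08 and -3.02. The SUMO protease USPL1 was at -2.66, ZRANB1 at -1.27 and MYSM1, an H2A protease, at -1.22. The highest value was MPND, at 0.38. Of 14 partner proteins, 7 (50.0%) fell and 3 (21.4%) rose by adjusted p, with a median of -0.23 from ATXN7 at -1.67 to ENY2 at 0.32. Steep falls were 3 of the 14 (21.4%, beside 12.4% of all genes). They were ATXN7, WDR20 and the centriole protein CEP97, at -1.13.

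Ubiquitin ligases and the proteasome, which act upstream and downstream of these enzymes, were counted in the same way. Of 104 genes with RNF or TRIM symbols, many of them ubiquitin ligases, 33 (31.7%) fell steeply, beside 12.4% of all genes, with a median of -0.35. Of 48 proteasome genes with PSM symbols, 0 fell steeply and 40 (83.3%) rose by adjusted p, beside 40.2% of all genes, with a median of 0.32. Against these, the 50 proteases had 18.0% steep falls and a median of -0.30. The other deubiquitinases had 20.8% steep falls and a median of -0.02, and the differences between the lists were not tested.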

How the data were processed

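RNA from MDA-MB-231 Fluc cells (2 samples with 50 μM cordycepin and 2 with DMSO, 2 h) was sequenced by the authors as 75 bp paired-end reads, mapped to GRCh38.p13 and counted with rsubread. The submitters' processing notes name hg38, TopHat, HTSeq, DESeq and Cufflinks with no role. The columns are laid out like the output of edgeR's quasi-likelihood F test, but the tool of the comparison, its normalization and its filter on low counts are not given in the sources used here, and the depth of the libraries is unknown. The deposited table holds the authors' comparison, with a log2 fold change, a mean log2 CPM, an F score, a p-value and its adjusted form for 13957 genes, and 0 further columns of values per sample. All fold changes and p-values printed are those deposited values, and no test between samples was made. Adjusting the deposited p-values again by the Benjamini-Hochberg method gave the deposited adjusted values to within 0.00746 of their size. The counts, medians, approximate SEs (log2 fold change divided by the square root of F), levels per kilobase and correlations were computed from the table, with gene structure from GENCODE. Motifs were counted in GENCODE and RefSeq sequences. Only the adjustment, the calls past the threshold and the approximate SE were run on simulated data, in which F was built with the same formula as the SE. Steep falls and rises are those past 1 on the log2 scale with p of at most 0.05, after cut-offs that the study shows for another of its experiments. Cut-offs for these samples are not given in the sources used here.

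All 50 members are named. Full values were given for those past the threshold, the 5 largest rises, the highest and lowest levels and those with an adjusted p over 0.05, and the lowest and highest genes of the other deubiquitinases, partner proteins and known substrates were named. RNF, TRIM and PSM genes, taken by symbol, are given by counts. The members, role groups and lists (other deubiquitinases, partner proteins, known substrates, RNF and TRIM genes, PSM genes and markers) were chosen with earlier results of these data known. Values of a few other genes are left out and not reported here. GENCODE release 44, in which 13922 gene IDs (99.7%) were found, gave exons and 3' UTRs, and RefSeq (GRCh38.p14) gave promoters. Coordinates of genes are those of the deposited table. Tables were handled with pandas 2.3.3 and numpy 2.4.6 under Python 3.11.15, correlations with scipy 1.17.1 and figures with matplotlib 3.10.9.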

Additional observations from a re-analysis of the deposited data

How the results depend on the processing

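The deposited table holds 1 comparison, so neither the spread between duplicates nor the depth behind a value can be examined. No paired analysis was possible because single libraries have no values in the table, and fits that leave out a replicate were not run for the same reason. The count of 9 steep falls was 20 with the smaller threshold of 0.58 on the log2 scale and 2 among the 34 genes of the family above the median level of all genes. Among those 34 genes, 16 fell by adjusted p in place of 32, and the median of the family was -0.0533 in place of -0.30. The mean in place of the median was -0.57. Taking off the median fold change of genes above the median level (0.13) brought the median of the family to -0.43 and turned 7 genes negative: USP24 (-0.12), USP16 (-0.11), USP46 (-0.0849), USP4 (-0.0627), USP33 (-0.0188), OTUD5 (-0.0132) and USP34 (-0.0042). USP54 then passed the threshold, at -1.0048. The other 42 values for single genes kept their direction under this shift, which was fixed in advance for those already below 0. The other 23 counts and medians kept theirs, and the counts stayed within 1.5 times. Some called genes moved by more than that under the rescaling, as 8 rises shrank (USP28, USP9X, USP48, USP39, USP11, OTUB1, USP40 and USP14, to between 0.0482 and 0.17), and 6 small falls grew (USP21, USP8, USP25, USP15, USP22 and USP7). These alternatives were stricter p-values, other minimum fold changes, removal of the band of lowest levels, the rescaling, and the family without closely similar copies.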

Other observations

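Of 20 genes whose products are known substrates of the family, 13 fell and 6 rose by adjusted p, and 6 fell steeply. Of all 13957 genes, 37.2% fell and 40.2% rose by adjusted p, and 12.4% fell steeply. MYC, a substrate of USP28 and USP36, had the lowest value, -4.35 (approximate SE 0.067), and CTNNB1 the highest, 0.28. The other steep falls, named after their values were seen, were TRAF6 (-3.41), MCL1 (-2.65), BRCA2 (-1.36), RIPK1 (-1.23) and MDM2 (-1.12). These are levels of mRNA, and the data hold no measure of ubiquitin on any protein.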
